A study of Mus musculus with 3 samples.

Results

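Transcripts of the KEAP1-NRF2 system were followed in activated mouse spleen T cells. The 10 genes were chosen by name as the sensor, the factor and main targets of the pathway (Keap1, Nfe2l2, Nqo1, Gclm, Gclc, Hmox1, Txnrd1, Slc7a11, Srxn1 and Gsr), and all 10 were among the 17796 genes of the deposited table. The Young group was C57BL/6 mice of 2 months, labelled vehicle. The Old group was C57BL/6 mice of 24 months given vehicle, and the Old + Fumarate group was C57BL/6 mice of the same stated age given 10 mg/kg fumarate, in both cases 3 times a week for 2 months. T cells of all 3 groups were activated in culture for 3 days on plates coated with antibody against CD3 (2 ug/ml) and with antibody against CD28 (5 ug/ml), in the presence of 100 IU/ml interleukin 2, so no unstimulated cells were compared. The medium contained b-mercaptoethanol, a thiol reductant, in every group. Each group had 1 library, the labels do not say whether mice were pooled, so differences below are between single libraries and were not tested against a spread between mice.

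KEAP1 is an adaptor protein that holds the transcription factor NRF2, encoded by Nfe2l2, in the cytoplasm and hands it to a CUL3 ubiquitin ligase for destruction. Oxidants and electrophiles react with cysteines of KEAP1 and let NRF2 build up, enter the nucleus and bind antioxidant response elements together with a small MAF protein. Fumarate is an intermediate of the tricarboxylic acid cycle and a mild electrophile that can modify cysteines of KEAP1 by succination. This control acts on the NRF2 protein, which was not measured here. The targets supply glutathione and thioredoxin, the thiol systems that proliferating T cells use to handle the oxidants made during activation.

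The values are CPM, the reads of a gene scaled to a total of 1000000 per library. The step between low values gave estimated depths of 41.0 M reads (M for 1000000) for Young, 17.3 M for Old and 13.9 M for Old + Fumarate. For each of the 10 genes the log2 ratio of CPM is given with a 95% Clopper-Pearson interval, which covers counting error only. A gene is called higher or lower when CPM + 1 differed by at least 1.5-fold, among the 13750 genes with a mean of at least 1 CPM over the 3 libraries. All 10 genes passed this minimum.

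The libraries differed in markers of other blood cells, and these values stand beside every result below. All 18 listed T cell identity genes were in the table and none was near 0. Their summed levels were 5382 CPM in Young, 4726 CPM in Old and 5727 CPM in Old + Fumarate. Thy1 alone was at 752, 988 and 1453 CPM and weighs on these sums. The median log2 ratio of CPM + 1 of the 18 genes was -0.33 for Old over Young. It was 0.21 for Old + Fumarate over Old and -0.15 for Old + Fumarate over Young. The 14 erythroid and platelet markers summed to 14.0 CPM in Young, 1388 CPM in Old and 178 CPM in Old + Fumarate. Their most abundant gene in Old was Pf4, platelet factor 4, at 468 CPM. The 9 basophil and mast cell markers summed to 6.25, 513 and 98.2 CPM in the same order, led in Old by Gata2 at 113 CPM. For macrophages, monocytes and neutrophils 11 of 12 markers were in the table, and their sums were 16.7, 90.3 and 10.8 CPM. Mpeg1 made up most of the Young sum, at 13.4, 18.2 and 1.52 CPM. In Old + Fumarate over Young 5 of the 8 genes at or above 1 CPM were higher and 1 lower. The shares of all genes were 10.5% and 6.79%. In Young 6 of the 11 markers lay below the level that 3 reads would give (Lyz2, Csf1r, Adgre1, Itgam, S100a8 and S100a9). In Old + Fumarate 4 did (Csf1r, Adgre1, S100a8 and S100a9). Among the erythroid and platelet markers Alas2 and Hba-a2 were below that level in both of these libraries, as was Hbb-bt in Young. Fcer1a and Prss34 of the basophil list were below it in Young. B cell markers (9 of 10 in the table) summed to 7.15, 18.4 and 19.8 CPM and NK cell markers (5 of 6) to 2.34, 58.4 and 44.0 CPM, with Klra8 below the level of 3 reads in Old + Fumarate. In both aged libraries the B cell list was led by Ebf1 (0.927, 5.91 and 9.31 CPM) and the NK cell list by Gzma (0.537, 30.2 and 31.0 CPM). Gzma made up most of the NK cell sum in both aged libraries. It is not particular to NK cells, so these sums need not stand for NK cells. Old thus had the highest marker sum for every list except T cell identity and B cells. The part of other cells in the levels of the 10 genes was not tested, and in bulk RNA fewer cells of a type and less RNA per cell cannot be told apart.

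**Figure D1:**
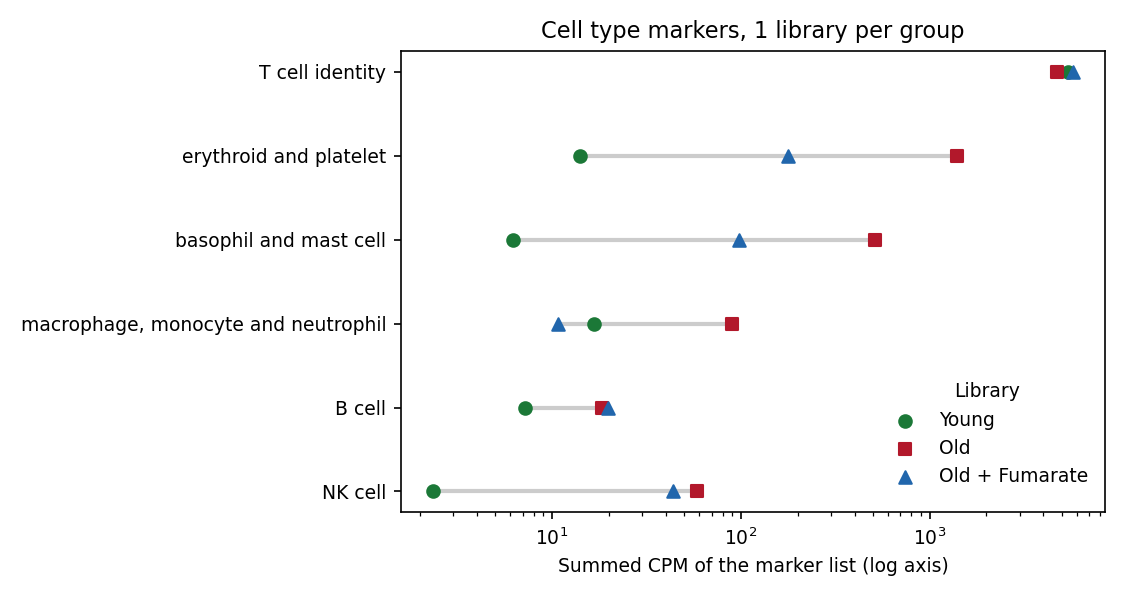
Summed CPM of 6 lists of cell type markers (log axis) in the Young, Old and Old + Fumarate libraries, 1 symbol per library. T cell identity genes lie between 4726 and 5727 CPM, whereas erythroid and platelet markers span 14.0 CPM in Young to 1388 CPM in Old.

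The Keap1 transcript differed between the 3 libraries by less than the counting error, and the Nfe2l2 transcript was higher in Old. Keap1 (chromosome 9, 21229730 to 21239361, minus strand, mm10) was at 115 CPM in Young, 119 CPM in Old and 114 CPM in Old + Fumarate. The log2 ratio of CPM was 0.05 for Old over Young (interval -0.03 to 0.12), -0.07 for Old + Fumarate over Old (-0.16 to 0.03) and -0.02 for Old + Fumarate over Young (-0.10 to 0.06). All 3 intervals include 0, so no difference in this sensor gene was detectable at this depth with CPM as deposited. Scaled to T cell identity genes, the log2 ratio of CPM + 1 was 0.33 for Old over Young and -0.26 for Old + Fumarate over Old, both still within 1.5-fold, and that scaling moved the median of all genes in the same directions (values below). An antisense gene, Gm16754, overlaps Keap1 and was at 3.82, 2.46 and 2.32 CPM in Young, Old and Old + Fumarate, small beside Keap1 itself.

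Nfe2l2 (chromosome 2, 75675513 to 75704641, minus strand) encodes NRF2. It was at 48.4 CPM in Young, 101 CPM in Old and 52.2 CPM in Old + Fumarate. Old stood above both other libraries, which lay close together. Its log2 ratio was 1.06 for Old over Young (0.97 to 1.15), a 2.09-fold difference, and -0.95 for Old + Fumarate over Old (-1.08 to -0.83). Between Old + Fumarate and Young it was 0.11 with an interval of -0.02 to 0.23 that includes 0.

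**Figure D2:**
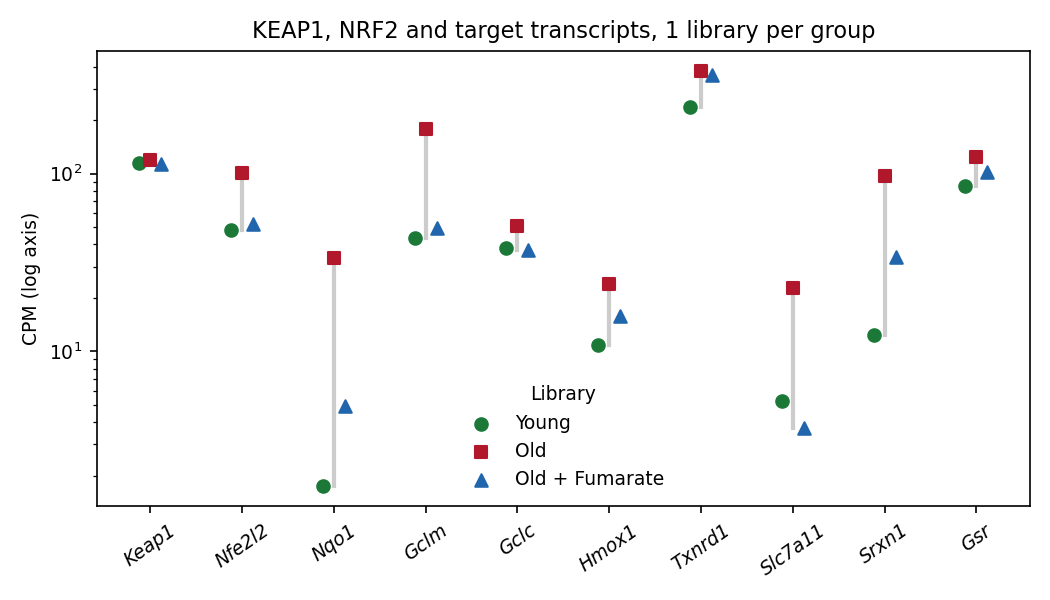
CPM (log axis) of the 10 genes in the Young (circle), Old (square) and Old + Fumarate (triangle) libraries, with a grey line from the lowest to the highest library of each gene. The Old square is the highest symbol for all 10 genes, by the most for Nqo1 (33.7 CPM against 1.76 and 4.91 CPM) and by the least for Keap1 (119 CPM against 115 and 114 CPM).

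The genes of glutathione supply differed in size of change. Glutathione is made from glutamate, cysteine and glycine, and its first step is run by glutamate-cysteine ligase, a catalytic subunit (Gclc) with a modifier subunit (Gclm) that raises its efficiency. Gclm (chromosome 3, 122245557 to 122270732, plus strand) was at 43.7 CPM in Young, 178 CPM in Old and 49.6 CPM in Old + Fumarate. Old was the single high library. The log2 ratio was 2.02 for Old over Young (1.94 to 2.11), -1.84 for Old + Fumarate over Old (-1.96 to -1.72) and 0.18 for Old + Fumarate over Young (0.06 to 0.31). Gclc, the catalytic subunit (chromosome 9, 77754535 to 77794485, plus strand), was at 38.1, 50.6 and 37.3 CPM in Young, Old and Old + Fumarate. Old was again highest, but Gclc stayed within 1.5-fold in every comparison, with log2 ratios of 0.41 (0.29 to 0.53), -0.44 (-0.60 to -0.28) and -0.03 (-0.17 to 0.12). The transcripts of the subunits of 1 enzyme thus had unequal ratios.

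A gene on the opposite strand, Gm17494, overlaps Gclm and shares 296 exon bases with it, 4.71% of the exon bases of Gclm in GENCODE M21. Gm17494 was at 169, 125 and 153 CPM in Young, Old and Old + Fumarate, lowest where Gclm was highest. Whether the counting used strand is not given in the sources used here, so reads from these shared bases cannot be assigned with certainty.

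Slc7a11 encodes the cystine importer of system xc-, which brings in the amino acid that limits glutathione synthesis (chromosome 3, 49892526 to 50443614, minus strand). It was at 5.24 CPM in Young, 22.9 CPM in Old and 3.72 CPM in Old + Fumarate, from 215, 394 and 52 estimated reads. Old was the high library, and Old + Fumarate was the lowest. Its log2 ratio was 2.12 for Old over Young (1.88 to 2.37), a 4.36-fold difference, and -2.62 for Old + Fumarate over Old (-3.05 to -2.18). With an interval of -0.95 to -0.04 around -0.50, Slc7a11 was the 1 gene of the 10 whose interval for Old + Fumarate over Young lay below 0, though the difference did not reach 1.5-fold on the CPM + 1 scale. Gsr, glutathione reductase, which returns oxidized glutathione to its reduced form (chromosome 8, 33652523 to 33698163, plus strand), was at 85.2, 124 and 102 CPM. Its order was Young, then Old + Fumarate, then Old, and all 3 intervals excluded 0, yet each difference was under 1.5-fold (1.46-fold for Old over Young).

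The thioredoxin branch was split as well. Txnrd1, thioredoxin reductase 1, a selenoprotein that recharges cytosolic thioredoxin (chromosome 10, 82833951 to 82897712, plus strand), was the most abundant of the 10 genes per kilobase of exon in every library, at 33.3, 53.0 and 50.4 CPM per kb. Its CPM was 236 in Young, 376 in Old and 357 in Old + Fumarate. Here both aged libraries were high and the Young library low. The log2 ratio was 0.67 for Old over Young (0.62 to 0.72), -0.07 for Old + Fumarate over Old (-0.13 to -0.02) and 0.60 for Old + Fumarate over Young (0.55 to 0.65). The last lay at the edge of the 1.5-fold limit and passed neither with TMM scaling nor over protein-coding genes alone (CPM + 1 log2 ratios of 0.58 and 0.57).

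Srxn1 encodes sulfiredoxin, which repairs overoxidized peroxiredoxins (chromosome 2, 152105516 to 152111376, plus strand). It was at 12.4 CPM in Young, 96.6 CPM in Old and 34.0 CPM in Old + Fumarate. Old + Fumarate stood between the other libraries, apart from both. Its log2 ratio was 2.97 for Old over Young (2.82 to 3.11), a 7.81-fold difference, -1.51 for Old + Fumarate over Old (-1.66 to -1.36) and 1.46 for Old + Fumarate over Young (1.27 to 1.64). Of the 10 genes Srxn1 had the highest CPM + 1 ratio of Old + Fumarate over Young (log2 1.39), and 3.03% of all genes at or above 1 CPM had a higher one.

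Among the detoxifying enzymes, Nqo1, the quinone reductase often used as a readout of NRF2 (chromosome 8, 107388225 to 107403206, minus strand), had the widest range of the 10 genes. It was at 1.76 CPM in Young, 33.7 CPM in Old and 4.91 CPM in Old + Fumarate, from 72, 581 and 68 estimated reads. Old was far above the others, and Young was lowest. The log2 ratio was 4.26 for Old over Young (3.90 to 4.63), a 19.2-fold difference, -2.78 for Old + Fumarate over Old (-3.16 to -2.41), 6.86-fold lower, and 1.48 for Old + Fumarate over Young (0.98 to 1.98). Of all genes at or above 1 CPM, 1.32% had a higher CPM + 1 ratio of Old over Young than Nqo1 and 1.22% a lower one of Old + Fumarate over Old. With 5 CPM added in place of 1, Nqo1 was no longer past 1.5-fold in Old + Fumarate over Young (log2 0.55).

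Hmox1, heme oxygenase 1, which breaks down heme and is abundant in macrophages that clear red cells (chromosome 8, 75093621 to 75100589, plus strand), was at 10.8 CPM in Young, 23.8 CPM in Old and 15.9 CPM in Old + Fumarate. Old was highest and Young lowest. The log2 ratio was 1.14 for Old over Young (0.94 to 1.34), -0.58 for Old + Fumarate over Old (-0.83 to -0.34) and 0.56 for Old + Fumarate over Young (0.32 to 0.79). The last 2 were under 1.5-fold both with 1 CPM added and without it.

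The promoters of these genes are shown because the targets are defined by elements in their regulatory DNA. RefSeq sequence (GRCm38.p6, the mm10 assembly) of about 250 bases before to 50 after the start site was matched for 7 of the 10 genes. There were 9 promoters in all, 3 of them for Txnrd1, and Gclc, Hmox1 and Gsr are named only. The core of the antioxidant response element was searched only as TGACNNNGC on both strands, where N is any base. The form with G in place of the first C was not searched, so the counts and shares below leave it out. TGACNNNGC was found for 4 of the 7 genes (Nfe2l2, Gclm, Srxn1 and 1 promoter of Txnrd1). Of all 32851 promoters 12.4% held it, or 16.8% of the 11186 genes of the deposited table that have a promoter. The targets among the 10 genes are known ones, so this share is no independent evidence. Positions below count as 0 the base that follows the first 250 bases of each window. For Slc7a11 and Nqo1, on the minus strand, 249 bases precede the first exon, so position 0 is 1 base past its first base. For Srxn1 242 bases precede the first exon, so position 0 lies farther inside it. For Nfe2l2 position 0 lies upstream of the gene start given above. The Nfe2l2 match runs from -240 to -232 (chr2:75704885-75704913, minus strand), the Gclm match from -134 to -126 (chr3:122245413-122245441, plus strand) and the Txnrd1 match from -92 to -84 (chr10:82859104-82859132, plus strand). Srxn1 had its match at 28 to 36 past position 0 (chr2:152105542-152105570, plus strand). Each is printed 5′ to 3′ on the strand of the gene with 10 flanking bases, capitals mark the match, and the last 3 hold it on the opposite strand, so it reads GCNNNGTCA.
Nfe2l2: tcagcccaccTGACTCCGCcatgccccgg
Gclm: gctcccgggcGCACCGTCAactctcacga
Txnrd1: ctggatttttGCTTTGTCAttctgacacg
Srxn1: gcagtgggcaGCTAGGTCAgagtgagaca

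A pair of further elements was searched. TGANTCA, the AP-1 element, is its own reverse complement and can overlap with the antioxidant response element. It was found in Srxn1 alone of the 7 genes, at -102 to -96 and -45 to -39 (7.81% of all promoters held it). With the bases that follow it, the match at -45 to -39 differs from TGACNNNGC only by G in place of the first C. That form was not searched, so this site is listed as an AP-1 match alone. TGATGNAA, the core of the amino acid response element bound by ATF4 with a CEBP partner, was found in Slc7a11 alone, at -66 to -59 and, on the opposite strand, at -47 to -40 (3.97% of all promoters). The Nqo1 window, from the gene with the widest range here, held none of the 3 letter patterns, which says only that these letters are not within it. The stretches upstream of the first exon are printed for these 3 genes, with the matches in capitals. They are Srxn1 (chr2:152105274-152105515, plus strand), Slc7a11 (chr3:50443615-50443863, minus strand) and Nqo1 (chr8:107403207-107403455, minus strand).
Srxn1: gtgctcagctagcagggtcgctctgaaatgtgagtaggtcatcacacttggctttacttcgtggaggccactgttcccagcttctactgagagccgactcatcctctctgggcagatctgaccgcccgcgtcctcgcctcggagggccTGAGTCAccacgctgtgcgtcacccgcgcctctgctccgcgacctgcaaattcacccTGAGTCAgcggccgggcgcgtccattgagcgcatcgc
Slc7a11: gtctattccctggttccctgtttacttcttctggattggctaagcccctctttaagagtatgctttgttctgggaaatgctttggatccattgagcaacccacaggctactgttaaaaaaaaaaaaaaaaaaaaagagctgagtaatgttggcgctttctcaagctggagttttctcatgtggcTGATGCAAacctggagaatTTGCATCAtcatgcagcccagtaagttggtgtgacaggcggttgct
Nqo1: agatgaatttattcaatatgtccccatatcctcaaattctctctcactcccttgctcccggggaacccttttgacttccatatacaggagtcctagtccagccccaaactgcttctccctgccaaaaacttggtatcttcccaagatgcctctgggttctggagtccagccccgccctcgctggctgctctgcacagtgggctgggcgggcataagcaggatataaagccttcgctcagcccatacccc

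Counted over the 10 genes, Old over Young had 7 higher (Nfe2l2, Nqo1, Gclm, Hmox1, Txnrd1, Slc7a11 and Srxn1), none lower and 3 within 1.5-fold, with a median log2 ratio of CPM + 1 of 1.06. Of all 13750 genes 16.5% were higher and 6.73% lower in this comparison, and their median was 0.03. With 10 CPM as the minimum mean, which all 10 genes also pass, 11.7% of genes were higher. Old + Fumarate over Old had 5 of the 10 lower (Nfe2l2, Nqo1, Gclm, Slc7a11 and Srxn1), none higher and a median of -0.75, against 11.2% lower, 2.15% higher and a median of -0.02 over all genes. Both comparisons use the single Old library, and the values side by side are therefore not separate evidence.

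Old + Fumarate over Young, the comparison without the Old library, had 3 of the 10 higher (Nqo1, Txnrd1 and Srxn1), none lower and a median of 0.22. Of all genes 10.5% were higher and 6.79% lower, with a median of 0.00479. By counting intervals, 6 of the 10 genes lay above 0, 1 below (Slc7a11) and 3 could not be separated (Keap1, Nfe2l2 and Gclc). The share of all genes with intervals that exclude 0 was not computed, so these counts say nothing particular about the 10 genes.

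Old was the highest of the 3 libraries for all 10 genes, against 38.7% of all genes, though for Keap1 this lead was inside the counting intervals and turned against Young with TMM scaling. Old was highest and Young lowest for 7 of the 10, against 26.5%. Old was past 1.5-fold above both others for 5 of the 10, against 8.73%. Setting the libraries equal in the T cell identity list moved the median of all genes by 0.26 for Old over Young and by -0.19 for Old + Fumarate over Old, and the shares called became 26.3% higher with 3.16% lower and 0.975% higher with 15.6% lower. Under that scaling Gclc and Gsr joined the higher genes of Old over Young (CPM + 1 log2 ratios of 0.68 and 0.82), and Gclc and Hmox1 the lower genes of Old + Fumarate over Old (-0.63 and -0.75).

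**Figure D3:**
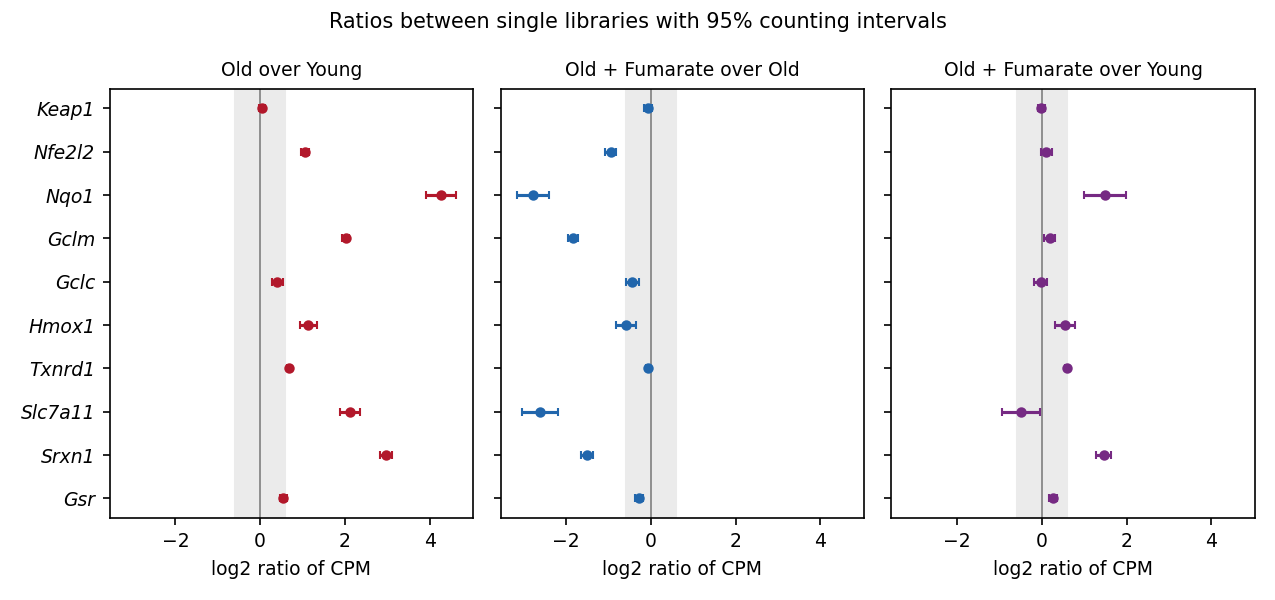
Log2 ratios of CPM for the 10 genes in the 3 pairs of libraries, with 95% counting intervals as bars and the range within 1.5-fold in grey. Nqo1, Srxn1, Slc7a11 and Gclm lie farthest to the right for Old over Young (2.02 to 4.26) and farthest to the left for Old + Fumarate over Old (-2.78 to -1.51), and Keap1 sits between -0.07 and 0.05 in all 3 panels.

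Per kilobase of exon, the order of the genes was partly shared by the libraries. Txnrd1 was the first and Gsr the second in all 3, and Slc7a11 was the last at 0.377, 1.64 and 0.267 CPM per kb in Young, Old and Old + Fumarate. Srxn1 moved most in rank, from place 8 in Young (4.39 CPM per kb) to place 3 in Old (34.3) and place 5 in Old + Fumarate (12.1).

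Of 20 partners and regulators of KEAP1 and NRF2, 5 were higher and none lower in Old over Young (median 0.10), against 16.5% and 6.73% of all genes. In Old + Fumarate over Old 2 were lower, against 11.2% of all genes, and none higher (median -0.02). Under TMM scaling the median was 0.03 and 1 gene was higher, against 2.68% of all genes. In Old over Young 3 were higher and 1 lower with TMM scaling, median-of-ratios scaling or protein-coding genes alone. Of all genes, 15.2%, 15.4% and 17.7% were then higher and 8.02%, 7.72% and 7.34% lower, in that order. Cul3, the scaffold of the ubiquitin ligase, was at 157, 160 and 177 CPM in Young, Old and Old + Fumarate. Sqstm1, which encodes the autophagy receptor p62 that can draw KEAP1 away from NRF2 and is itself an NRF2 target, was at 162, 330.2 and 241 CPM. The small MAF partners Mafk (45.3, 69.5 and 57.2 CPM) and Mafg (68.9, 105 and 82.0 CPM) had Old as the highest library, and Maff was at 10.9, 13.1 and 13.1 CPM.

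Bach1, a heme-regulated repressor that competes with NRF2 for its elements, was at 7.37 CPM in Young, 29.4 CPM in Old and 7.36 CPM in Old + Fumarate. Its log2 ratio of CPM + 1 was 1.86 for Old over Young and -1.86 for Old + Fumarate over Old, with Old as the single high library. The BACH1 protein was not measured, and its bearing on the targets was not tested. The lymphoid relative Bach2 was at 110, 74.7 and 75.3 CPM and the NRF2 relative Nfe2l1 at 208, 177 and 174 CPM, both highest in Young. Nfe2, the relative that serves megakaryocytes and red cell precursors, was at 0.342, 73.5 and 6.64 CPM. This is the order of the erythroid and platelet marker sums, and also that of 26.5% of all genes.

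Other genes of glutathione use had 5 of 15 higher and 1 lower in Old over Young (median 0.47), against 16.5% and 6.73% of all genes, and 2 of 15 lower in Old + Fumarate over Old (median -0.33), against 11.2%. When scaled to T cell identity genes these became 9 higher, against 26.3% of all genes, and 4 lower, against 15.6%. Abcc1, an exporter of glutathione conjugates, was at 98.3, 178 and 159 CPM in Young, Old and Old + Fumarate, higher in both aged libraries. The glutathione transferases Gstm1 (2.56, 6.02 and 1.65 CPM) and Gstm5 (0.293, 3.36 and 0.433 CPM) were low in every library, and reads of this family of similar copies are uncertain. Mgst2 was lower in Old, at 5.15, 2.14 and 3.61 CPM, and Mgst3 was at 2.66, 2.20 and 1.37 CPM.

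Of 16 thioredoxin and peroxide-removing genes, 2 were higher and 1 lower in Old over Young (median 0.00417), near the 16.5% and 6.73% of all genes. With TMM scaling, median-of-ratios scaling or protein-coding genes alone none was higher, against 15.2%, 15.4% and 17.7% of all genes. When scaled to T cell identity genes 4 were higher in Old over Young, against 26.3% of all genes, and 4 lower in Old + Fumarate over Old, against 15.6%. Without that scaling 1 was lower in Old + Fumarate over Old, against 11.2%. The peroxiredoxins Prdx6 (133, 202 and 136 CPM) and Prdx5 (82.6, 125 and 115 CPM) were the higher ones, and Prdx4, of the endoplasmic reticulum, was lower at 54.8, 32.4 and 38.3 CPM. Cat, catalase, was at 52.0, 64.8 and 37.8 CPM and was the gene lower in Old + Fumarate over Old. Sesn1, a p53-induced sestrin, was at 22.0, 15.9 and 11.2 CPM.

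Enzymes that supply NADPH, the electron source of both Gsr and Txnrd1, had 3 of 9 higher in Old over Young (median 0.26), against 16.5% of all genes, and 2 of 9 lower in Old + Fumarate over Old (median -0.24), against 11.2%. Idh1, cytosolic isocitrate dehydrogenase, was at 10.6, 28.0 and 8.23 CPM in Young, Old and Old + Fumarate. Taldo1, a transaldolase of the pentose phosphate pathway, was at 110, 194 and 117 CPM. These 2 had Old as the single high library, whereas Me1, malic enzyme 1, was at 1.37, 9.91 and 15.2 CPM and highest in Old + Fumarate. Its log2 ratio of CPM + 1 was 2.20 for Old over Young and 2.78 for Old + Fumarate over Young. Idh2, the mitochondrial isocitrate dehydrogenase, was at 62.9, 50.3 and 37.3 CPM.

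Heme and iron genes had 4 of 11 higher in Old over Young and 3 of 11 lower in Old + Fumarate over Old (medians 0.23 and -0.23), against 16.5% and 11.2% of all genes. In Old + Fumarate over Young 4 of 11 were higher, against 10.5%. Blvrb, biliverdin reductase B, an enzyme abundant in red cells, was at 2.37, 33.7 and 4.40 CPM. Slc48a1, a heme transporter, was at 36.1, 106 and 62.9 CPM. Fth1, the ferritin heavy chain, was at 365, 784 and 605 CPM, though ferritin genes have many processed copies and their reads are uncertain. All 3 of these genes had Young lowest and Old highest, and all 3 were called higher in Old + Fumarate over Young. The erythroid and platelet, basophil and mast cell, and NK cell marker sums had the same order, as did 26.5% of all genes.

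The carbonyl, quinone and drug detoxification list was mixed. It had 5 of 16 genes higher and 3 lower in Old over Young (median 0.41), against 16.5% and 6.73% of all genes, and 6 of 16 lower in Old + Fumarate over Old (median -0.24), against 11.2%. When scaled to T cell identity genes the first count was 8, against 26.3% of all genes. Aldh1a1, a retinaldehyde dehydrogenase, was at 0.0488 CPM (2 estimated reads) in Young, 85.6 CPM in Old and 5.49 CPM in Old + Fumarate, and Cbr3, a carbonyl reductase, at 0.0488, 3.65 and 0.217 CPM. Osgin1, an oxidative stress growth inhibitor, was at 0.0976, 3.24 and 0.722 CPM. Against these, Ephx1, microsomal epoxide hydrolase, was highest in Young at 23.1 CPM, with 10.1 CPM in Old and 4.91 CPM in Old + Fumarate. Ugdh, which makes UDP-glucuronate, was at 75.8, 34.1 and 40.1 CPM.

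ATF4, the factor of the amino acid stress response, also drives Slc7a11, and whether it did so here was not tested. Most genes of the ATF4 list, which includes Atf4 itself, were lower in Old than in Young with CPM as deposited. Of 15 genes 12 were lower and 1 higher in Old over Young (median -0.66), against 6.73% of all genes lower, with 6 lower when scaled to T cell identity genes, against 3.16%. In Old + Fumarate over Old 3 were lower and 1 higher (median 0.06, or -0.14 when scaled to T cell identity genes), against 11.2% and 2.15% of all genes. In Old + Fumarate over Young 10 were lower, against 6.79% of all genes, and none higher (median -0.80). Trib3, a pseudokinase, was at 57.7, 14.3 and 12.3 CPM in Young, Old and Old + Fumarate, and Chac1, a glutathione-degrading enzyme, at 14.2, 3.13 and 2.82 CPM. Cth, which makes cysteine, was at 74.6, 15.6 and 18.8 CPM and Slc7a3, an arginine transporter, at 21.4, 2.95 and 7.22 CPM. Old thus had the lowest level of Cth and the highest level of the cystine importer gene Slc7a11 among the 3 libraries. The higher gene in Old over Young was Atf5, at 15.0, 31.9 and 16.6 CPM, and Vldlr, a lipoprotein receptor, was at 28.4, 33.2 and 7.36 CPM.

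**Figure D4:**
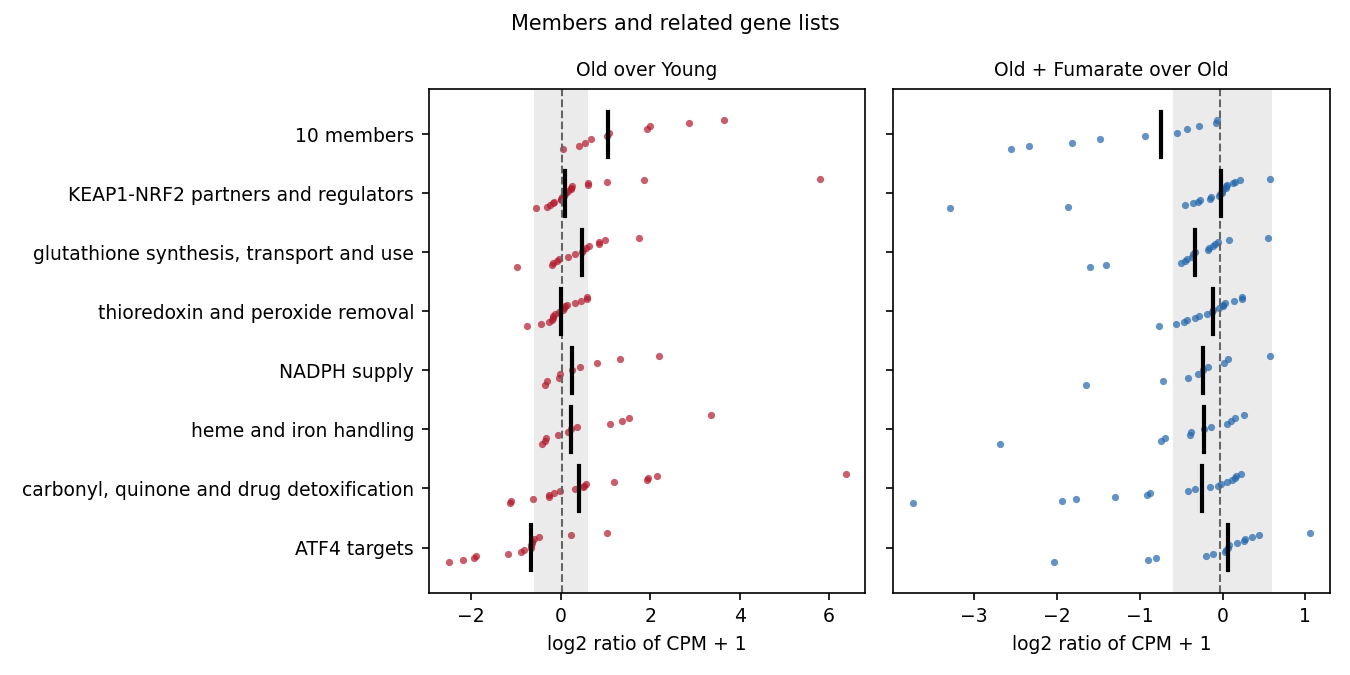
Log2 ratios of CPM + 1 of the 10 genes and of 7 related gene lists for Old over Young (left) and Old + Fumarate over Old (right), 1 point per gene with a mean of at least 1 CPM, with the list median as a black bar, the median of all genes as a dashed line and the range within 1.5-fold in grey. The medians of the 10 genes are 1.06 and -0.75, and the ATF4 targets are the list with a median below the grey range on the left (-0.66).

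For 6 of the 10 genes the genes of most similar pattern were taken, by the distance between their 2 log2 ratios (Old over Young, Old + Fumarate over Old) over the 3 libraries, among 8686 genes with a mean of at least 10 CPM, left after pseudogenes, predicted genes and receptor segments were taken out. Nearest to Nqo1 were Prkar2b (6.37, 118 and 16.7 CPM, distance 0.0633), Gucy1b1 and Napsa. Nearest to Gclm were Cited2 (40.2, 154 and 44.0 CPM, distance 0.0915), Ogfrl1 and Inpp5a, and nearest to Slc7a11 were Nol4l, Nt5dc2 and Runx1 at distances of 0.144 to 0.288. Nfe2l2 had Repin1, the immunoproteasome gene Psmb10 and Atf5 as neighbours, and Hmox1 had Gata3, Orai2 and Paqr7. For Keap1 they were Eif3g, Chic2 and Ogdh, whose levels in the 3 libraries were likewise close. With 3 libraries many genes can share a pattern, and this is a description only.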

How the data were processed

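Per the labels' protocols, a SMARTER mRNA kit was used on 500 ng of total RNA. The submitters' processing notes name STAR, Partek and mm10, with no version or role, and the annotation release is not given. Although titled raw counts, the deposited values are CPM, since each library sums to 1000000. With a tolerance of 0.02 reads, 57.8% to 67.6% of values were whole reads, so no count model was fitted. Groups were taken from the titles. The members and lists were chosen with earlier results of these data known. Named genes were the 10 members, 8 set partners, up to 2 per list, comparison and direction with the largest ratio, 3 most similar genes, and top markers. Exon lengths are from GENCODE M21, and table ends were moved back by 1 base. Calls and intervals were tested on simulated reads. Alternatives were 2 other constants, 3 scalings, 2 minimums, a 2-fold limit and protein-coding genes alone. Scripts ran in Python 3.11.15 with scipy 1.17.1, pandas 2.3.3, numpy 2.4.6 and matplotlib 3.10.9.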

Additional observations from a re-analysis of the deposited data

How the results depend on the processing

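Over 9 alternatives, the 54 recomputed counts of higher and lower members all stayed within 1.5 times the reported ones. All 10 genes had a mean of at least 10 CPM, so the 2 other minimums could not change a count. Reported counts of 0 stayed at 0. The band also holds changes such as from 7 to 9 higher in Old over Young and from 3 to 2 higher in Old + Fumarate over Young. Of 138 member ratios and medians 21 moved by more than the counting interval, 19 of them when libraries were scaled to T cell identity genes, and no called ratio changed sign. With a 2-fold limit Txnrd1 dropped out of Old over Young and Old + Fumarate over Young, and Nfe2l2 out of Old + Fumarate over Old. Scaling to T cell identity genes also brought Hmox1 past 1.5-fold in Old + Fumarate over Young (0.59). Over all genes, 5 CPM added in place of 1 left 0.793% higher in Old + Fumarate over Old, where 2.15% were higher with 1 CPM, and a 2-fold limit left 10.1% higher in Old over Young. No paired analysis was possible because each group has 1 library. Depth limits Nqo1 and Slc7a11 most, with 68 and 52 estimated reads in Old + Fumarate, and intervals cover counting error only, not the spread between mice.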
